A study of Homo sapiens with 2 samples.

Results

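The genes described here are 10 that set the activity of the transcription factor NRF2, share or compete for its DNA sites, or respond to it: NFE2L2 (which encodes NRF2), its relative NFE2L1, the inhibitor gene KEAP1, the KEAP1-binding adaptor gene SQSTM1, the repressor gene BACH1, the small MAF genes MAFF, MAFG and MAFK, and the NRF2-responsive genes OSGIN1 and PIR. They were taken by symbol from a table of 58735 genes, and 10 of 10 were found. All 10 had at least 50 reads in at least 1 of the libraries. The series holds 2 RNA-seq libraries of a SUIT-2 derivative with high metastatic potential. SUIT-2 is an established human pancreatic adenocarcinoma line. The DHA library came from cells given dihydroartemisinin, the active form of the artemisinin antimalarials, a peroxide-bridged compound that iron and heme activate. The NC library came from cells labelled NC, which the series' design text describes as untreated. Nothing else is labelled as differing between them. Neither the dose nor the exposure time nor any vehicle is given in the sources used here. Each condition had 1 library, so no difference below has a replicate check, and no test was run.

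NRF2 and NRF1 (the product of NFE2L1) are CNC-bZIP factors, which bind DNA as heterodimers with a small MAF protein at antioxidant response elements. In unstressed cells KEAP1 hands NRF2 to a CUL3 ubiquitin ligase, and electrophiles or a bound SQSTM1 (p62) protein relieve this. NRF1 sits in the endoplasmic reticulum and, once processed, drives proteasome genes. BACH1 pairs with the same small MAFs on the same elements as a repressor, and heme releases it from DNA and promotes its loss. Small MAF proteins lack a transactivation domain. In pancreatic cancer the pathway is known for its part in redox control.

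The DHA library held 14521101 counted reads and the NC library 15452609. Mitochondrial transcripts took 6.44% of the DHA reads and 8.57% of the NC reads. The line was checked against markers of other sources, since the labels' extraction text names retina. Of 8 retina genes, 4 (SAG, GNAT1, RCVRN and CRX) had 0 reads in both libraries, and the list summed to 4.39 CPM (reads scaled per library by TMM) in the DHA and 5.65 CPM in the NC library. Most of that was OPN1SW, with 49 reads in the DHA and 61 in the NC library. Of 4 blood genes, 3 (PTPRC, CD3E and HBB) were at 0 in both, and the list summed to 0.549 CPM in the DHA and 0.715 CPM in the NC library. All of that was CD14, with 8 reads in the DHA and 11 in the NC library. The fibroblast list of 5 summed to 0.823 CPM in the DHA and 6.76 CPM in the NC library, with COL1A2, COL3A1 and DCN at 0 in both. COL1A1 had 11 reads in the DHA and 83 in the NC library, and LUM had 1 and 21. The endothelial list of 3 summed to 3.91 CPM in the DHA and 18.3 CPM in the NC library, with CDH5 at 0 in both. Nearly all of that was PECAM1, with 54 reads in the DHA and 280 in the NC library. PECAM1 and COL1A1 were thus present in the NC library and lower in the DHA library by 2-fold or more. Epithelial markers were present in both, with 6 genes that summed to 1310 CPM in the DHA and 3317 CPM in the NC library. All 5 of these with enough reads were lower in the DHA library by 2-fold or more, and the part of that shift in the values below was not tested. In such bulk samples fewer cells of a type and less RNA per cell cannot be told apart.

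Upstream sequence is shown for OSGIN1, the gene with the largest ratio, for MAFG, the most abundant small MAF gene, and for the genes whose window held an element searched for other than the E-box. Windows of 300 bases, 250 before to 50 after a RefSeq start (build GRCh38.p14), were available for 9 of the 10 genes, 17 windows in all. MAFK had none. Searched on both strands were the antioxidant response element (ARE) core TGACNNNGC, the AP-1 site TGACTCA or TGAGTCA, the longer MAF recognition core (an AP-1 site directly preceded by TGC), the cyclic AMP element TGACGTCA and the E-box CACGTG. The single OSGIN1 window held an AP-1 site whose first base lies 97 bases before the start, and the TGC before it completes the MAF recognition core. That core was found in 0.285% of all 35116 windows and in 1 of the 17. The RefSeq start of this OSGIN1 window is downstream of the first annotated base of the gene. The OSGIN1 stretch printed next therefore lies inside the gene span given further below. The MAFG stretch lies outside the annotated span of MAFG. The next lines give, on the gene's strand from 5′ to 3′, the 120 bases from 160 to 41 before the OSGIN1 start (chr16:83953080-83953199, plus strand) with the AP-1 site in capitals, and the 120 bases directly before the MAFG start (chr17:81927736-81927855, minus strand) with an E-box in capitals.
OSGIN1 upstream: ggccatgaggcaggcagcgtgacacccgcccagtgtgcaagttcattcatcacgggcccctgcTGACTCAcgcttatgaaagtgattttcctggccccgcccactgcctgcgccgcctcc
MAFG upstream: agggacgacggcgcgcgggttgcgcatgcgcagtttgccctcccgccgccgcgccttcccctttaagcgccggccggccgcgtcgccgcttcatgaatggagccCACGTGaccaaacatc

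The ARE core was found in 13.3% of all windows and in 3 of the 17, which belong to KEAP1, MAFF and PIR. Read on the opposite strand, the OSGIN1 site differs from the ARE core searched for only in a G for the C of TGAC. AP-1 sites were found in 4.95% of all windows and in 3 of the 17 (BACH1, OSGIN1 and PIR), E-boxes in 7.26% and 3 (MAFF and MAFG), and the cyclic AMP element in 1.85% and 1 (MAFF). One KEAP1 window held ARE cores that begin 54 and 31 bases before the start, the second on the opposite strand. A MAFF window held an ARE core on the opposite strand 122 bases and a cyclic AMP element 54 bases before the start. In the PIR window an ARE core and an AP-1 site overlap from base 27 of the transcript. The windows of NFE2L1, NFE2L2 and SQSTM1 held none of these letters. A match is a run of letters and was not tested for binding. All sites printed below lie inside the annotated gene spans given further below, since these RefSeq starts are downstream of the first annotated base of each gene. The sites are given below in 30 bases each on the gene's strand, with the match in capitals.
KEAP1 ARE core, chr19:10502806-10502835, minus strand: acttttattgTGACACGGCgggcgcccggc
KEAP1 ARE core, chr19:10502783-10502812, minus strand: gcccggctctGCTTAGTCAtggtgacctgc
MAFF ARE core, chr22:38201862-38201891, plus strand: cttccaggggGCGGGGTCAtacgggggcgg
MAFF cyclic AMP element, chr22:38201929-38201958, plus strand: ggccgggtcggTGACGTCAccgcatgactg
BACH1 AP-1 site, chr21:29298863-29298892, plus strand: cgcggaaggagTGAGTCAcctgaccgctgc
PIR ARE core, chrX:15493288-15493317, minus strand: gccgcgaagcGCTGAGTCAcggtgaggcta

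The DHA library had more reads of OSGIN1, all 3 small MAF genes and SQSTM1, by 2.97-fold to 17.8-fold. NFE2L1, BACH1, NFE2L2 and KEAP1 lay between 1.27-fold and 1.76-fold, and PIR alone lay below 1. A gene was called when it had 50 reads or more in either library, its ratio of scaled counts (TMM scaling, 0.5 reads added) reached 2-fold, and the 95% counting interval of that ratio excluded 1. By this rule of size 5 of the 10 were higher in the DHA library, against 6.72% of the 12064 genes tested, and 0 were lower, against 10.3%. These shares are 811 genes higher and 1245 lower, whereas scaled as TPM 1219 were higher and 976 lower, with the same 5 of the 10 called. At 1.5-fold 8 of the 10 were higher, against 18.9% of genes tested, and 0 were lower, against 19.2%. The median log2 ratio of the 10 was 1.19, beside 0.04 over all genes tested. The intervals cover counting error only, because PCR duplicates are no separate molecules and the spread between cultures is unknown.

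**Figure D1:**
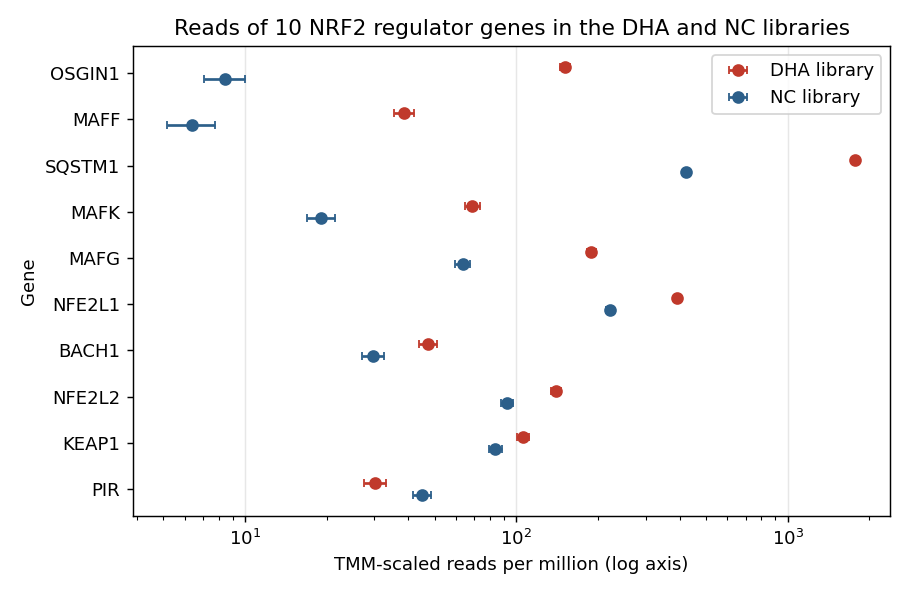
TMM-scaled CPM (log axis) of the 10 genes in the DHA library (red) and the NC library (blue), with 95% Poisson counting intervals as bars. OSGIN1 stands at 151 CPM in the DHA and 8.44 CPM in the NC library, and PIR is the 1 gene whose DHA point lies to the left of its NC point.

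NFE2L2 (ENSG00000116044, chromosome 2, 177227595 to 177392697, minus strand, GRCh38) had 2037 reads in the DHA library and 1422 in the NC library. Scaled, this was 139.8 CPM in the DHA and 92.4 CPM in the NC library, a ratio of 1.51 (95% counting interval 1.41 to 1.62). The gene for NRF2 thus did not reach 2-fold under the rule. Annotated exons of other genes cover 20.9% of its exon length, most of it from AC019080.1 on the same strand, which had 12 reads in the DHA and 30 in the NC library.

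NFE2L1 (ENSG00000082641, chromosome 17, 48048329 to 48061487, on the plus strand) had 5685 reads in the DHA library and 3409 in the NC library. Its level was 390 CPM in the DHA and 221 CPM in the NC library, a ratio of 1.76 (1.69 to 1.84), also under 2-fold. It was the more abundant of the pair. Per length, NFE2L1 had 2.86 times the TPM (reads per exon length, scaled to 1 total in both libraries) of NFE2L2 in the DHA library and 2.46 times in the NC library. The ratio of NFE2L1 exceeded that of NFE2L2 by 0.22 on the log2 scale, with a 95% counting interval of 0.10 to 0.33. Together they summed to 321 TPM in the DHA and 169.8 TPM in the NC library.

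KEAP1 (ENSG00000079999, chromosome 19, 10486120 to 10503741, minus strand), the substrate adaptor that holds NRF2 down, had 1544 reads in the DHA library and 1287 in the NC library. That was 105.9 CPM in the DHA and 83.6 CPM in the NC library, a ratio of 1.27 (1.18 to 1.37), the nearest to 1 of all 10 genes. NFE2L2 stood at 0.830 of the KEAP1 level per length in the DHA library and 0.695 in the NC library, and its log2 ratio was higher by 0.26 (0.11 to 0.40). No annotated exon of another gene overlaps KEAP1.

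SQSTM1 (ENSG00000161011, chromosome 5, 179806398 to 179838078, plus strand) encodes p62, which carries cargo into autophagosomes and binds KEAP1. It had 25733 reads in the DHA library and 6508 in the NC library, the most of the 10 genes in both. Scaled, it had 1765 CPM in the DHA and 423 CPM in the NC library, and its ratio of 4.18 has the narrowest interval of the called genes relative to its size (4.06 to 4.29). Its level per length was 8.19 times that of KEAP1 in the DHA library and 2.48 times in the NC library. The log2 ratio of SQSTM1 was larger than that of KEAP1 by 1.72 (1.61 to 1.83). Exons of MRNIP on the opposite strand cover 20.7% of its exon length, and MRNIP had 948 reads in the DHA and 270 in the NC library. Without a stated strand setting, reads of such overlapping stretches cannot be told apart.

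BACH1 (ENSG00000156273, chromosome 21, 29194071 to 29630751, on the plus strand) had 690 reads in the DHA library and 457 in the NC library. It had 47.3 CPM in the DHA and 29.7 CPM in the NC library, a ratio of 1.59 (1.41 to 1.80), and did not pass the rule. NFE2L2 had 3.81 times the TPM of BACH1 in the DHA library and 4.02 times in the NC library. The log2 ratio of NFE2L2 differed from that of BACH1 by -0.08, with an interval of -0.27 to 0.12, so a difference of either sign lies within counting error.

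The small MAF genes, whose products are the shared dimer partners of NRF2, NRF1 and BACH1, all passed the rule. MAFG (ENSG00000197063, chromosome 17, 81918270 to 81927714, on the minus strand) had 2750 reads in the DHA library and 978 in the NC library, a ratio of 2.97 (2.76 to 3.20). MAFK (ENSG00000198517, chromosome 7, 1530714 to 1543043, on the plus strand) had 1003 reads in the DHA library and 294 in the NC library, a ratio of 3.60 (3.16 to 4.12). MAFF (ENSG00000185022, chromosome 22, 38200767 to 38216511, plus strand), the least abundant, had 563 reads in the DHA library and 98 in the NC library, a ratio of 6.04 (4.89 to 7.60). Among the 3, the folds ran in the reverse order of the levels in the NC library.

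MAFF exceeded MAFG in log2 ratio by 1.03 (0.70 to 1.35) and MAFK by 0.75 (0.39 to 1.11). MAFK exceeded MAFG by 0.28 (0.06 to 0.49). None of these intervals holds 0. The 3 genes summed to 207.8 TPM in the DHA library and 55.9 TPM in the NC library, and their pooled reads had a ratio of 3.33 (3.13 to 3.54). MAFG made up 61.8% of that sum in the DHA and 69.2% in the NC library, MAFK 26.4% in the DHA and 24.4% in the NC library, and MAFF 11.8% in the DHA and 6.45% in the NC library. MAFG had 1.55 times the TPM of NFE2L2 in the DHA library and 0.788 times in the NC library, so on the deposited lengths their order turned. Its level relative to BACH1 was 5.89 in the DHA and 3.16 in the NC library.

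**Figure D2:**
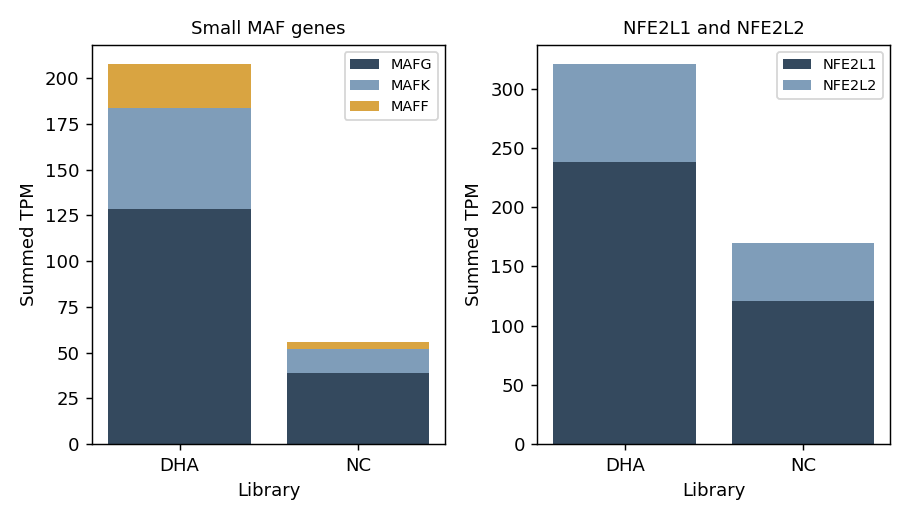
Summed TPM of the small MAF genes (left panel) and of NFE2L1 and NFE2L2 (right panel) in the DHA and the NC library, with each gene as a segment of the bar. The small MAF bar reaches 207.8 TPM in the DHA and 55.9 TPM in the NC library, and the other bar 321 TPM in the DHA and 169.8 TPM in the NC library.

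The small MAF genes also share a short coding part. The coding stretches in the annotation take 486 of 5220 exon bases in MAFG, 469 of 4458 in MAFK and 492 of 5615 in MAFF, so most of the exonic sequence that reads can fall on lies outside the annotated coding stretches. BACH1 has 2388 coding of 7717 exon bases. Of the 50-base words in transcripts of the 3 genes, 0 occurred in another small MAF gene, so reads of that length would not be shared among them. In MAFK, 17.1% of words occurred in another gene, all of which TMEM184A on the opposite strand holds. TMEM184A had 49 reads in the DHA and 134 in the NC library, the opposite direction to MAFK. For MAFG and MAFF the shares were 3.72% and 0.491%.

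OSGIN1 (ENSG00000140961, chromosome 16, 83948282 to 83966332, plus strand), an oxidative stress-induced growth inhibitor gene, had the largest ratio of the 10. It had 2200 reads in the DHA library and 130 in the NC library, which is 151 CPM in the DHA and 8.44 CPM in the NC library. The ratio was 17.8 (15.0 to 21.5), and only 6 of the 12064 genes tested had a higher one. Exons of AC009119.2 on the same strand cover 13.9% of its exon length, and that gene had 6 reads in the DHA and 12 in the NC library. The AP-1 site shown above, which with the TGC before it is also the MAF recognition core, lies in its window. The protein-coding genes nearest in log2 ratio to OSGIN1 (4.15), among 10495 with at least 50 reads in each library, were PPP1R15A (4.25), NDRG1 (3.99) and HMOX1 (3.73). With 2 libraries the likeness rests on 1 ratio per gene.

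PIR (ENSG00000087842, chromosome X, 15384799 to 15493564, minus strand) encodes pirin, an iron-binding nuclear protein, and is a known NRF2-responsive gene. It had 440 reads in the DHA library and 693 in the NC library. That was 30.2 CPM in the DHA and 45.0 CPM in the NC library, a ratio of 0.671 (0.594 to 0.757), which did not pass the rule. The log2 ratios of OSGIN1 and PIR differed by 4.73 (4.42 to 5.04). Per length, OSGIN1 had 3.63 times the level of PIR in the DHA library, whereas PIR had 7.34 times that of OSGIN1 in the NC library.

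**Figure D3:**
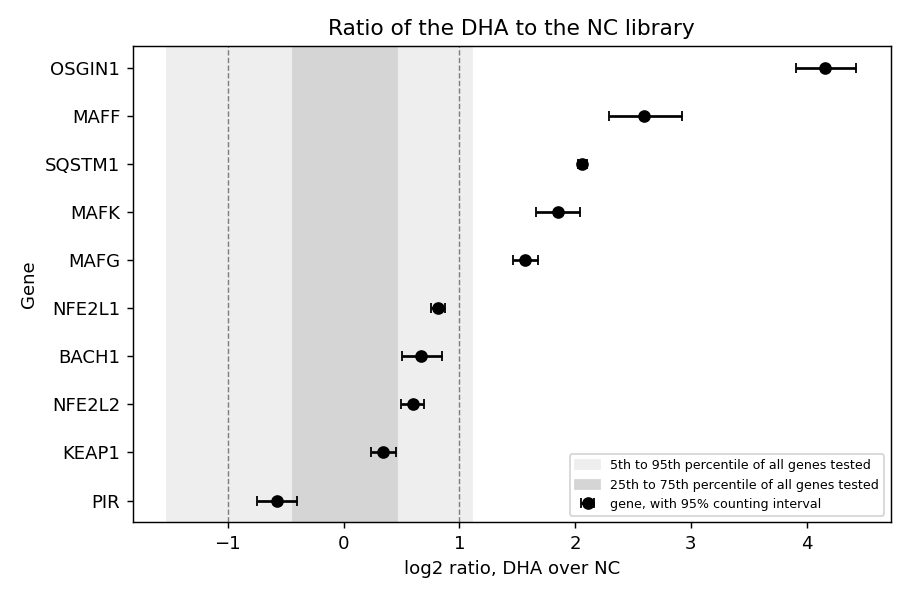
The log2 ratio of the DHA to the NC library for each gene, with 95% counting intervals. Grey bands mark the 5th to 95th and the 25th to 75th percentile of the 12064 genes tested, and dashed lines mark 2-fold. OSGIN1 at 4.15 and the small MAF genes and SQSTM1 between 1.57 and 2.60 lie to the right of the outer band, which ends at 1.11.

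Per length, the order of the 10 genes in the DHA library was SQSTM1 (820 TPM), NFE2L1 (238 TPM), OSGIN1 (155 TPM), MAFG (128.5 TPM), KEAP1 (100.1 TPM), NFE2L2 (83.1 TPM), MAFK (54.9 TPM), PIR (42.7 TPM), MAFF (24.5 TPM) and BACH1 (21.8 TPM). Of these neighbours, MAFF and BACH1 had overlapping 95% Poisson intervals and the others did not. These intervals cover counting error only. The order also depends on the deposited lengths, which are the union of all annotated exons and can exceed the length of the transcripts expressed. In the NC library the order was SQSTM1 (175 TPM), NFE2L1 (120.8 TPM), KEAP1 (70.6 TPM), PIR (56.9 TPM), NFE2L2 (49.1 TPM), MAFG (38.7 TPM), MAFK (13.6 TPM), BACH1 (12.2 TPM), OSGIN1 (7.75 TPM) and MAFF (3.60 TPM). There MAFK and BACH1 overlapped. OSGIN1 thus held the third place in the DHA library and the ninth in the NC library, while SQSTM1 and NFE2L1 led in both. Of all genes tested, 92.5% had a lower TPM than OSGIN1 in the DHA library and 23.6% in the NC library. By size of ratio, the intervals of SQSTM1 and MAFK overlapped, as did those of MAFK and MAFG, of NFE2L1 and BACH1, and of BACH1 and NFE2L2. TPM sums to the same total in each library, and on that scale the median log2 ratio of all genes tested lies 0.16 higher, so ratios between libraries are given from TMM-scaled counts.

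**Figure D4:**
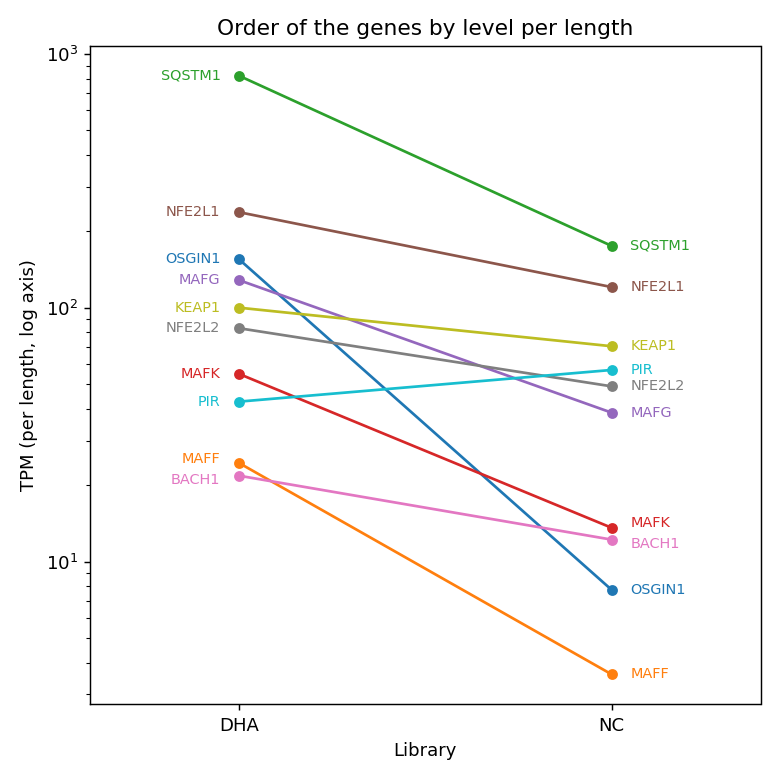
Level per length (TPM, log axis) of each gene in the DHA library (left) and the NC library (right), joined by a line. The OSGIN1 line is the steepest, between 155 TPM in the DHA and 7.75 TPM in the NC library, and PIR is the 1 line that is lower at the DHA end.

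The wider pathway was read from lists of other genes. Among relatives of the same bZIP families, only NFE2L3 had 50 reads, with 1030 in the DHA and 1843 in the NC library, a ratio of 0.590 (0.546 to 0.637) that did not pass the rule. Its protein, NRF3, is a CNC factor close to NRF1. The other 5 of 6 (NFE2, BACH2, MAF, MAFA and NRL) had between 1 and 34 reads in the DHA library and between 0 and 20 in the NC library. BACH2 had 6 reads in the DHA and 0 in the NC library, 0 being compatible with up to 3 reads or 0.195 CPM.

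Of 9 genes of the ligases that turn NRF2 over, 1 was higher and 0 lower, near the 6.72% higher and 10.3% lower of all genes tested, with a median log2 ratio of 0.31 beside 0.04 over all genes tested. That gene was SYVN1, an endoplasmic reticulum ubiquitin ligase that also acts on NRF1, with 997 reads in the DHA and 461 in the NC library (2.28-fold, 2.04 to 2.56). The kinase gene GSK3B, the ligase adaptor gene BTRC and the ring subunit gene RBX1 had log2 ratios of 0.79, 0.70 and -0.57, none past the rule. Of 9 genes of NRF1 maturation and turnover SYVN1 was again the 1 higher and 0 were lower, with a median of 0.50. NPLOC4, FBXW7 and SEL1L had 0.69, 0.64 and 0.62.

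Of 7 genes whose proteins bind KEAP1 or NRF2, 2 were higher, against 6.72% of all genes tested, and 1 was lower, near the 10.3% of all genes tested, with a median of 0.06. The higher ones were SESN2 (1147 reads in the DHA and 200 in the NC library, 6.04-fold) and the cell cycle inhibitor gene CDKN1A (3354 reads in the DHA and 603 in the NC library, 5.87-fold). AMER1, also known as WTX, was 2.25-fold lower (79 reads in the DHA and 188 in the NC library), and PALB2 had a log2 ratio of -0.12. Of 12 autophagy receptor and SQSTM1 partner genes 11 had enough reads, 4 were higher and 0 lower, against 6.72% and 10.3% of all genes tested, with a median of 0.84. They were GABARAPL1 (5.002-fold), the kinase gene ULK1 (3.44-fold), MAP1LC3B (3.31-fold), whose product SQSTM1 binds on autophagosomes, and TOLLIP (2.10-fold).

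Of 30 NRF2 target genes 29 had enough reads, 8 were higher and 2 were lower, against 6.72% and 10.3% of all genes tested, with a median of 0.50. The largest ratios were those of SRXN1 (15.8-fold, 171 reads in the DHA and 11 in the NC library), HMOX1 (13.3-fold), SLC7A11 (9.91-fold) and TXNRD1 (6.76-fold). The count of SRXN1 is uncertain, since exons of other genes cover 85.0% of its exon length. The lower ones were the transporter gene ABCC3 (2.76-fold, 954 reads in the DHA and 2777 in the NC library) and the aldo-keto reductase gene AKR1B10 (2.52-fold, 211 reads in the DHA and 563 in the NC library). Of the 31 proteasome subunit genes, the best-known targets of NRF1, 0 were higher and 0 lower, against 6.72% and 10.3% of all genes tested. Their median was 0.10, and 20 of 31 ratios lay above 1, beside 6299 of the 12064 genes tested. PSMD3, PSMA6, PSMA2 and PSMC1 had log2 ratios of 0.86, 0.84, -0.83 and 0.68. Other genes' exons cover 75.8% of PSMC1, 34.6% of PSMA2 and 14.1% of PSMA6. The ratios of PSMA6 and PSMA2 rest on few reads. PSMA6 had 63 in the DHA and 37 in the NC library (1.79-fold, 1.18 to 2.78), and PSMA2 had 84 in the DHA and 158 in the NC library.

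**Figure D5:**
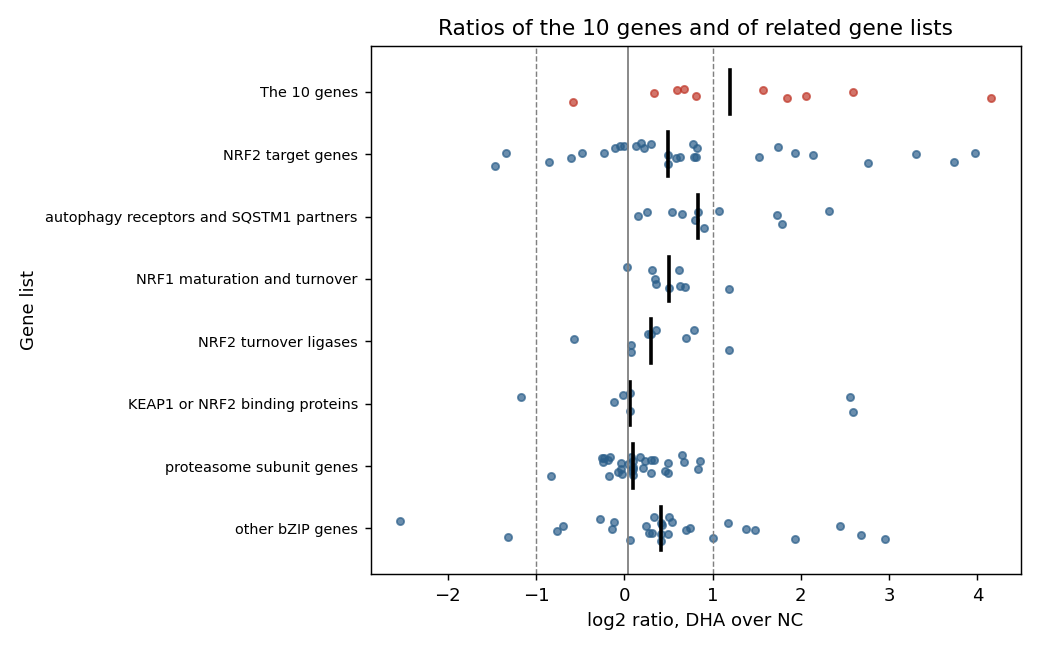
The log2 ratio (DHA over NC) of each gene with enough reads, for the 10 genes (red) and for lists of related genes (blue), with the median of each list as a black bar. The grey line is the median of all genes tested (0.04) and dashed lines mark 2-fold; the 10 genes have a median of 1.19 and the proteasome subunit genes lie between the dashed lines.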

How the data were processed

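Per the file headers, the authors deposited raw counts per gene of 1 DHA and 1 NC library, beside a gene length in bases. Per the submitters' processing notes the build is mm8, a mouse build, whereas 58724 of 58735 rows, the 10 genes included, have the name, coordinates and exon length of human GENCODE release 29 (GRCh38). No aligner, counter or strand setting is given in the sources used here.

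Counts were scaled by TMM (edgeR 4.0.16, R 4.3.3), 0.5 reads were added for ratios, and 95% counting intervals are exact Clopper-Pearson intervals of the DHA share of a gene's reads (scipy 1.17.1). Levels have 95% Poisson intervals, and differences between log2 ratios have Wald intervals from the 4 counts. With 1 library per group no test was possible, and a rule of size was used across all genes. The rule was checked on simulated counts with counting error only, so that check does not cover the spread between cultures. TPM used the deposited lengths, which for the 10 genes equal the union of all annotated exons. Levels compared between genes depend on these lengths, and the intervals do not cover an error in them. Promoter windows are RefSeq's (GRCh38.p14).

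The genes and lists were chosen with earlier results of these data known, and some listed genes are not reported here. Named from each list were up to 4 genes with at least 50 reads and the largest absolute log2 ratio, and the 3 genes nearest to the member with the largest one. Other bZIP genes, the lower NRF2 target genes and single marker genes were named after their values were seen. So were the other genes of low count, and the motifs were chosen then too. Alternatives covered scaling (total reads, DESeq2 1.42.0 size factors, upper quartile), pseudocounts, read minimums, folds and a 99.9% interval.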

Additional observations from a re-analysis of the deposited data

How the results depend on the processing

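The same 5 genes (OSGIN1, MAFF, SQSTM1, MAFK and MAFG) were called higher and 0 lower under 11 of 13 alternatives, among them every scaling. At 1.5-fold 8 of the 10 were higher, against 18.9% of genes tested. At 4-fold 3 of the 10 (OSGIN1, MAFF and SQSTM1) were higher, beside 110 of the 12064 genes tested. No log2 ratio of the 10 genes changed sign under the 7 changes of scaling or pseudocount. Of these 70 values, 63 stayed within the main counting interval. SQSTM1 lay at 1.997 under upper-quartile scaling and 2.22 as TPM. Scaling by TPM and by reads outside the mitochondrial genome were chosen after seeing the data. Depth limits MAFF and OSGIN1 most, at 98 and 130 NC reads. No paired analysis was possible because each group held 1 library.

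All genes called higher and lower numbered 811 and 1245 of 12064 tested. With a minimum of 10 reads they were 1297 and 2126 of 15616 tested, and with no minimum 1432 and 2386 of 26009. With 500 reads they were 431 and 379 of 6551, since more or fewer genes are eligible when the minimum changes. Of 12064 tested they were 2284 and 2320 at 1.5-fold, 110 and 340 at 4-fold, and 1219 and 976 as TPM. The relatives of the CNC and MAF families had 1 gene higher with a minimum of 10 reads, 2 with none, and 1 lower at 1.5-fold. With 500 reads the KEAP1 or NRF2 binding proteins had 0 lower, and the other bZIP genes 5 higher and 0 lower. At 1.5-fold 18.9% of all genes tested were higher and 19.2% lower. Higher then were 3 of 9 ligase, 4 of 9 NRF1 maturation and 8 of 11 autophagy genes. So were 13 of 29 NRF2 targets and 4 of 31 proteasome genes. Lower then were 4 of 29 NRF2 targets, 1 of 31 proteasome genes and 4 of 29 other bZIP genes. At 4-fold 110 of the 12064 genes tested were higher and 340 lower. Higher then were 0 of 9 ligase, 0 of 9 NRF1 maturation and 1 of 11 autophagy genes. So were 5 of 29 NRF2 targets and 3 of 29 other bZIP genes. Lower then were 0 of 7 binding proteins, 0 of 29 NRF2 targets and 1 of 29 other bZIP genes. As TPM 2 of 31 proteasome genes were higher, beside 1219 of the 12064 genes tested.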

Other observations

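The deposited table marks 48 genes as bZIP transcription factors, 6 of which are NFE2L1, NFE2L2, BACH1 and the small MAF genes. Of the 42 others 29 had enough reads, and 8 were at least 2-fold higher and 2 lower in the DHA library, against 6.72% and 10.3% of all genes tested, with a median log2 ratio of 0.42. The higher ones were the AP-1 genes FOSB (7.76-fold, 106 reads in the DHA and 14 in the NC library), FOSL1 (3.82-fold), JUN (2.61-fold), FOS (2.26-fold) and FOSL2 (2.002-fold), and the stress-response genes ATF3 (6.42-fold), DDIT3 (5.45-fold, with 39.6% of its exon length shared with other genes) and ATF4 (2.80-fold). The lower ones were CREB3L3, a liver and gut factor of the endoplasmic reticulum (5.82-fold, 24 reads in the DHA and 150 in the NC library), and the circadian output factor gene TEF (2.48-fold). The call of FOSL2 ended when scaling was by the upper quartile (log2 ratio 0.94), by DESeq2 (0.96) or by reads outside the mitochondrial genome (0.98), and when 5 reads were added (0.996). The AP-1 proteins bind the same TGACTCA letters that lie in the OSGIN1 window. With the TGC before them these letters are also the MAF recognition core. AP-1 sites lay in windows of BACH1 and PIR as well, whose ratios of 1.59 and 0.671 did not pass the rule. The part of AP-1, small MAF or CNC proteins in the OSGIN1 value was not tested.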
